A study of Mus musculus with 32 samples.

Results

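Iron and heme handling was followed through 8 genes in bone marrow macrophages: Hmox1, Blvra and Blvrb of heme breakdown, the exporter Slc40a1, the phagosomal transporter Slc11a1, the uptake receptor Tfrc, and the ferritin subunits Fth1 and Ftl1. Their probes were found by gene symbol in the annotation of the array versions, which gave 10 of 24613 probes in experiment 1 and 13 of 25697 probes in experiment 2, and 5 of these probes stood on both arrays. All 8 genes had at least 1 probe that passed the filter on low values in each experiment. Each gene was read from the probe with the highest mean, and the other probes are given where a gene had several.

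Macrophages take up iron bound to transferrin through the transferrin receptor and gain far more from engulfed red blood cells, whose heme they open with heme oxygenase. The iron set free is stored inside ferritin, a shell of heavy and light chains, or leaves the cell through ferroportin, the product of Slc40a1 and the only known iron exporter of vertebrates. Iron regulatory proteins adjust these steps after transcription: in iron-poor cells they block translation of the ferritin messages and of some ferroportin messages, and protect the Tfrc message from decay. Hmox1 and the ferritin genes are also known targets of the transcription factor NRF2, and iron in macrophages of atherosclerotic plaques has long been studied beside their lipid.

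The cells came from DBA/2 and AKR mice that all lacked ApoE, the apolipoprotein through which lipoprotein remnants are cleared, and that were killed at 16 weeks of age on a chow diet. Loaded dishes received acetylated LDL (AcLDL), a modified lipoprotein that scavenger receptors take up without feedback control, for 24 h, and unloaded dishes received none. The dose was 100 µg/ml in experiment 1, on cells labelled female, and 50 µg/ml in experiment 2, on cells labelled male. In each experiment 4 arrays were run for each of loaded DBA/2, unloaded DBA/2, loaded AKR and unloaded AKR cells, 32 arrays in all. Sex label, dose, AcLDL preparation, array version and year of the experiment changed together, so they cannot be told apart between the experiments, and no test was made across them because each table was normalized on its own. The methods describe dishes in quadruplicate without naming the mice behind each dish, so a p-value here measures the spread between cultures, which may be technical.

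Of the 32 arrays, 30 correlated best with the other arrays of their own group. In experiment 2 the array labelled AKR unloaded replicate 1 correlated at 0.966 with its own group and at 0.986 with loaded AKR cells, and the array labelled AKR loaded replicate 2 at 0.968 with its own group and at 0.985 with unloaded AKR cells. These values go against the labels of both arrays, and whether the labels were exchanged was not tested, so every AKR value of experiment 2 by the labels carries that limit. Experiment 2 is therefore given by its labels and also without these 2 arrays, a choice made after the values were seen. Of 8 macrophage markers, 6 were measured and all 6 passed the filter in both experiments. Their summed level on the log2 scale was 14.89 to 14.96 in loaded AKR cells and 15.22 to 15.34 in the other groups of experiment 1. Lyz2 was the brightest, at 14.06 to 14.41 in the group means of both experiments, and single markers moved apart. In AKR cells of experiment 1 Adgre1 averaged 11.96 loaded and 13.21 unloaded and Fcgr1 8.48 and 9.26, while Mertk alone was higher loaded, at 10.26 and 9.71. In experiment 2 the macrophage sum was 14.66 to 14.80 and 14.77 to 14.85 in loaded and unloaded DBA/2 cells, above the 14.29 to 14.53 and 14.38 to 14.57 in loaded and unloaded AKR cells, with no overlap between the strains. Mertk went the other way there, at 8.72 and 7.85 in loaded and unloaded DBA/2 and 9.48 and 9.22 in loaded and unloaded AKR cells. Of 10 erythroid markers, 7 were measured and 2 passed, with summed levels of 8.61 to 8.76 and of 6.69 to 7.05 and the globin probes near the median of their tables. Of 8 neutrophil markers, 7 were measured and 2 passed. Their summed level in experiment 1 was 10.49 to 11.00 in loaded DBA/2, 9.35 to 9.43 in unloaded DBA/2, 9.67 to 9.79 in loaded AKR and 9.49 to 9.78 in unloaded AKR cells. It was carried by S100a8, at 8.33 to 10.47 in the group means, where the other neutrophil markers stayed within 5.54 to 6.54. In experiment 2 the neutrophil sum was 8.27 to 8.52 in loaded DBA/2, 8.22 to 8.38 in unloaded DBA/2, 9.08 to 10.17 in loaded AKR and 9.46 to 9.81 in unloaded AKR cells. S100a8 averaged 7.78 to 9.49 in these groups and the other neutrophil markers 3.48 to 4.48. Of 6 stromal markers, all measured, 2 passed in experiment 1 and 3 in experiment 2, and their sum in experiment 1 was 9.14 to 9.32 in loaded DBA/2, 8.63 to 8.85 in unloaded DBA/2, 8.38 to 8.46 in loaded AKR and 8.30 to 8.45 in unloaded AKR cells, carried by Dcn, with the collagen probes near the table median. In experiment 2 that sum was 6.43 to 7.47 and 6.60 to 7.43 in loaded and unloaded DBA/2, and 6.45 to 6.83 and 6.54 to 6.58 in loaded and unloaded AKR cells. What part the macrophage, neutrophil and stromal markers have in the differences by strain and loading was not tested. A difference in a culture can come from fewer cells of a type or from less RNA per cell, which bulk arrays cannot tell apart.

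Slc40a1 responded to loading in opposite directions in the experiments, on the same probe. AcLDL lowered it in both strains in experiment 1 and raised it in DBA/2 cells in experiment 2. The 2 arrays that stand apart are AKR arrays, so leaving them out cannot move a loading difference in DBA/2 cells, only its standard error and adjusted p. Hmox1 rose with loading in AKR cells of experiment 1, and in experiment 2 it rose in both strains without the 2 arrays and in DBA/2 cells alone by the labels, a call that most fits with 1 array left out lost. Tfrc was lower in DBA/2 than in AKR cells in each of the 4 strain comparisons, and Blvra was higher in loaded DBA/2 than in loaded AKR cells in both experiments. Neither ferritin gene was called in any comparison. Levels are probe intensities on the log2 scale unless stated, and differences are loaded minus unloaded or DBA/2 minus AKR, with their standard errors.

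A gene was called where limma's adjusted p, corrected by Benjamini-Hochberg over all kept probes of the table, was under 0.01. In experiment 1 loading in DBA/2 cells called 2 of the 8 genes, both lower, where it called 12.1% of all kept probes and 6.32% of them lower. Loading in AKR cells called 5, with 1 higher and 4 lower, where 30.0% of kept probes were called. DBA/2 differed from AKR in 4 of the 8 when loaded and in 3 when unloaded, against 28.8% and 28.2% of kept probes. The interaction, the response of DBA/2 minus the response of AKR, was called for 2 genes, both negative, and for 14.8% of kept probes, 7.74% negative. With 8 genes, 1 gene is a large share. The counts for loading in AKR and strain in loaded cells sit above the background and the others lie within about 1 gene of it. The genes were chosen with earlier results of these data known, and each was read from its brightest probe while the background counts every kept probe. No test was made of these counts, so nothing is drawn from those that lie above it.

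By the labels of experiment 2, loading in DBA/2 cells called 2 of the 8 genes, both higher, beside 7.84% of kept probes, 4.01% higher. Loading in AKR cells called none of the 8 and 0.00% of kept probes, although limma gave an unadjusted p under 0.05 for 1877 of 13732 probes (13.7%). Strain was called for 3 genes in loaded cells, beside 12.1% of kept probes, and for 1 in unloaded cells, lower in DBA/2, beside 9.90% of kept probes, 5.32% lower. The interaction was called for none, beside 0.816%. Without the 2 arrays loading called 3 genes in DBA/2 cells, all higher, beside 17.9% of kept probes, 9.22% higher, and 3 in AKR cells, all higher, beside 18.4%, 9.19% higher. Strain was then called for 3 genes in loaded cells (19.2% of kept probes) and for 1 in unloaded cells, lower in DBA/2 (14.0%, 7.43% lower), and the interaction for 1, positive (5.11%, 2.73% positive).

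**Figure D1:**
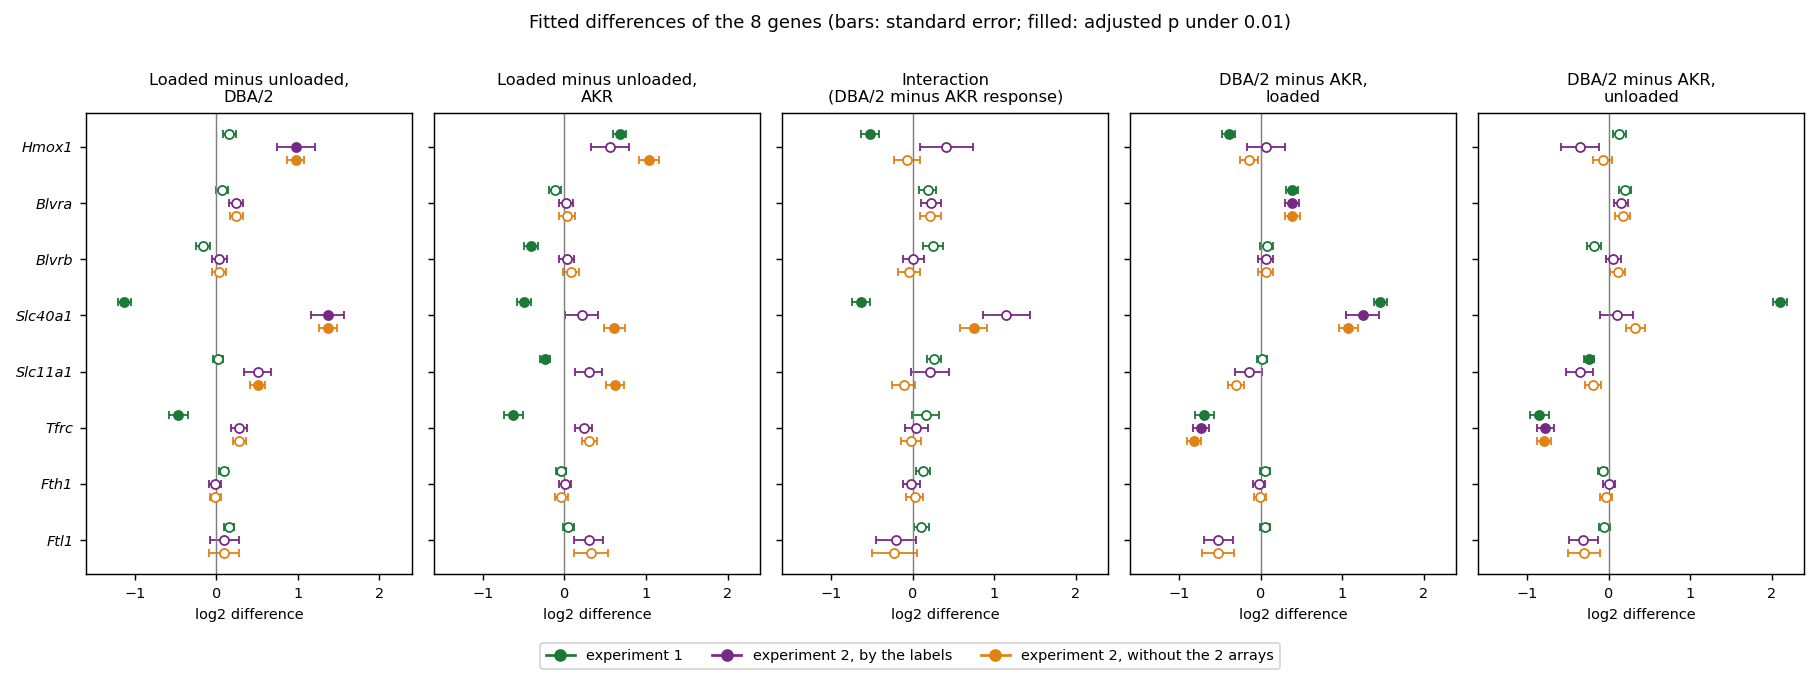
Fitted log2 differences (horizontal axis) of the 8 genes (rows) in each comparison, with bars for the standard error and filled points where the adjusted p was under 0.01. Slc40a1 lies at -1.13 in experiment 1 and at 1.36 in experiment 2 for loading in DBA/2 cells, while Tfrc lies below 0 in both strain panels in every setting shown.

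Heme breakdown begins with Hmox1, the inducible heme oxygenase, which cuts the heme ring into biliverdin, carbon monoxide and iron. In experiment 1 its level was 12.24, 12.48, 12.05 and 12.24 in loaded DBA/2 cells and 12.05, 12.22, 12.13 and 11.97 in unloaded DBA/2 cells. It was 12.61, 12.67, 12.71 and 12.58 in loaded AKR cells, against 11.86, 12.00, 11.94 and 12.05 in unloaded AKR cells. The groups of DBA/2 cells overlapped, whereas all loaded AKR arrays stood above every other array of the experiment. Loading raised Hmox1 in AKR cells by 0.68 ± 0.079 (1.60-fold, adjusted p = 1.67e-07) and the difference in DBA/2 cells was 0.16 ± 0.079 (adjusted p = 0.167). The interaction was called at -0.52 ± 0.112 (adjusted p = 0.00124), and loaded DBA/2 cells held less than loaded AKR cells by a log2 difference of -0.39 ± 0.079 (adjusted p = 0.000294). Unloaded cells of the strains differed by 0.13 ± 0.079, which was not called (adjusted p = 0.207).

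In experiment 2 a different Hmox1 probe read 9.42, 9.38, 9.19 and 9.57 in loaded DBA/2 cells and 8.30, 8.32, 8.56 and 8.50 in unloaded DBA/2 cells. All loaded DBA/2 arrays stood above all unloaded ones, and the difference of 0.97 ± 0.231 was called by the labels (adjusted p = 0.00835) and without the 2 arrays (0.97 ± 0.105, adjusted p = 3.22e-06). By the labels this call was lost on leaving out any of 10 of the 16 arrays, among them each DBA/2 array, with adjusted p-values up to 0.0292, and with replicates 1 and 2 set against 3 and 4 as a block (adjusted p = 0.0113). Loaded AKR cells read 9.31, 8.72, 9.63 and 9.66, and unloaded AKR cells 9.60, 8.48, 8.46 and 8.54. The 8.72 and the 9.60 came from the 2 arrays that stand apart, and each lay with the other AKR group. With them the loading difference in AKR cells was 0.56 ± 0.231 (adjusted p = 0.36), and without them 1.04 ± 0.121 (2.05-fold, adjusted p = 7.99e-06). The interaction was 0.41 ± 0.327 by the labels and -0.07 ± 0.160 without the 2 arrays, neither called (adjusted p = 0.613 and 0.857).

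Blvra and Blvrb encode the biliverdin reductases, of which the A form turns the biliverdin made by heme oxygenase into bilirubin and the B form also acts as a flavin reductase. Blvra in experiment 1 read 11.20, 11.25, 11.36 and 11.28 in loaded DBA/2 cells and 10.69, 10.84, 10.97 and 11.03 in loaded AKR cells. These groups did not overlap, and the difference was 0.39 ± 0.073 (1.31-fold, adjusted p = 0.000123). Unloaded cells ranged from 11.13 to 11.27 in DBA/2 and from 10.89 to 11.07 in AKR, a difference of 0.20 ± 0.073 that was not called (adjusted p = 0.0317). Another Blvra probe in experiment 2 read 10.13, 10.29, 10.27 and 10.16 in loaded DBA/2 cells, against 9.91, 9.85, 9.79 and 9.78 in loaded AKR cells. The strain difference in loaded cells was thus of the same size, 0.38 ± 0.086 by the labels (1.30-fold, adjusted p = 0.00413) and 0.39 ± 0.090 without the 2 arrays (adjusted p = 0.00386). It lost its call on leaving out AKR loaded replicate 3 or 4 or DBA/2 loaded replicate 2 or 3 in turn, at differences of 0.36 to 0.37. Loading was not called for Blvra in either strain, with differences of 0.07 and 0.25 in DBA/2 cells and -0.12 and 0.02 in AKR cells in experiments 1 and 2.

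The annotated start of Blvra held the only match to the core of the antioxidant response element, TGACNNNGC, the short motif bound by NRF2 with its small MAF partners. Promoter windows from RefSeq (GRCm38.p6) ran from 250 bases before to 50 after a start. They were at hand for 6 of the 8 genes, 9 windows in all, and both strands were searched. Hmox1 and Slc40a1 had no window, so neither was searched, and sequence outside the windows was not looked at. That motif occurred in 1 of the 9 windows and in 12.4% of 32817 windows of the genome, so it is given as a description. The site is shown because Blvra was the reductase that differed between the strains in both experiments. Its sequence is that of the GRCm38.p6 build and was not read from either strain, so it can show no difference between them. What part the site has in the Blvra difference was not tested. The motif is in capitals, here as its reverse complement.

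Blvra, chr2:127070598-127070627, plus strand, motif on the minus strand: cacgggaattGCTCGGTCAaggctccgcct

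Blvrb, also read by different probes, was called once. In experiment 1 it was 9.11, 9.23, 8.98 and 9.04 in loaded AKR cells, against 9.56, 9.67, 9.35 and 9.44 in unloaded AKR cells, with no overlap and a difference of -0.41 ± 0.084 (0.75-fold, adjusted p = 0.000311). In DBA/2 cells of that experiment it was 9.35, 9.07, 9.20 and 9.03 loaded and 9.42, 9.45, 9.21 and 9.22 unloaded, a difference of -0.16 ± 0.084 (adjusted p = 0.186). The interaction of 0.25 ± 0.119 was not called (adjusted p = 0.131), so the strains were not shown to differ in their response. In experiment 2 all 16 arrays fell between 11.73 and 12.06, and no difference by loading or strain exceeded 0.06 by the labels (adjusted p from 0.689 to 0.909).

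Export of iron runs through Slc40a1, and its probe was the member probe with the widest range over the arrays of either experiment. In experiment 1 it read 9.65, 9.38, 9.54 and 9.60 in loaded DBA/2 cells and 10.65, 10.66, 10.69 and 10.69 in unloaded DBA/2 cells. It read 8.04, 8.16, 8.01 and 8.10 in loaded AKR cells, against 8.84, 8.48, 8.59 and 8.38 in unloaded AKR cells. All 4 groups stood apart without overlap, from highest to lowest in the order unloaded DBA/2, loaded DBA/2, unloaded AKR, loaded AKR. On the linear scale the group means were 748 ± 58.7 and 1632 ± 23.6 in loaded and unloaded DBA/2 cells and 270 ± 12.6 and 383 ± 54.5 in loaded and unloaded AKR cells (SD, n = 4 each).

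Loading lowered Slc40a1 in experiment 1 by a log2 difference of -1.13 ± 0.081 in DBA/2 cells, to 0.457 of the unloaded level (adjusted p = 2.17e-10). In AKR cells the difference was -0.50 ± 0.081, to 0.709 of the unloaded level (adjusted p = 2.32e-05). The fall was larger in DBA/2 cells by the test of the difference itself, an interaction of -0.63 ± 0.115 (adjusted p = 0.000213). DBA/2 cells nevertheless held more than AKR cells, by 2.10 ± 0.081 unloaded (4.29-fold, adjusted p = 1.69e-16) and by 1.47 ± 0.081 loaded (2.76-fold, adjusted p = 1.5e-13). The probe sequences were not used here, and the authors' removal of probes that lie over strain variants was not repeated, so this and the other strain differences include any effect of such a variant on hybridization.

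In experiment 2 the same Slc40a1 probe read 10.76, 11.24, 11.18 and 11.07 in loaded DBA/2 cells and 9.79, 9.77, 9.62 and 9.61 in unloaded DBA/2 cells. All loaded DBA/2 arrays stood above every other array of the experiment. The difference by loading was 1.36 ± 0.202 by the labels (2.58-fold, adjusted p = 0.000253) and 1.36 ± 0.109 without the 2 arrays (adjusted p = 1.31e-07). It kept its call on leaving out each of the 16 arrays, between 1.30 and 1.47. Of these, an AKR array can change the standard error and adjusted p but not the difference. Its direction was the reverse of experiment 1, on the same probe, and the difference between the experiments was not tested. Within AKR cells the value depended on the 2 arrays. Loaded AKR cells read 10.10, 9.28, 9.98 and 9.88 and unloaded AKR cells 10.27, 9.46, 9.21 and 9.45, where the 9.28 and the 10.27 came from those arrays. By the labels the AKR difference was 0.21 ± 0.202 (adjusted p = 0.633), and without the 2 arrays 0.61 ± 0.126 (adjusted p = 0.00158), with all 3 loaded arrays above all 3 unloaded ones.

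The strains did not differ in unloaded cells of experiment 2 at the threshold used, with a Slc40a1 difference of 0.10 ± 0.202 by the labels (adjusted p = 0.801) and 0.32 ± 0.118 without the 2 arrays (adjusted p = 0.061). Loaded DBA/2 cells held more than loaded AKR cells by 1.25 ± 0.202 (2.38-fold, adjusted p = 0.000253), and by 1.08 ± 0.118 without the 2 arrays (adjusted p = 3.55e-06). The interaction was 1.15 ± 0.286 by the labels (adjusted p = 0.0404) and was called at 0.75 ± 0.166 without the 2 arrays (adjusted p = 0.00808). The strain by loading response of this gene thus had opposite signs in the experiments, as had the loading response itself. Higher Slc40a1 in loaded DBA/2 than in loaded AKR cells was the comparison of this gene called in the same direction in both experiments.

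**Figure D2:**
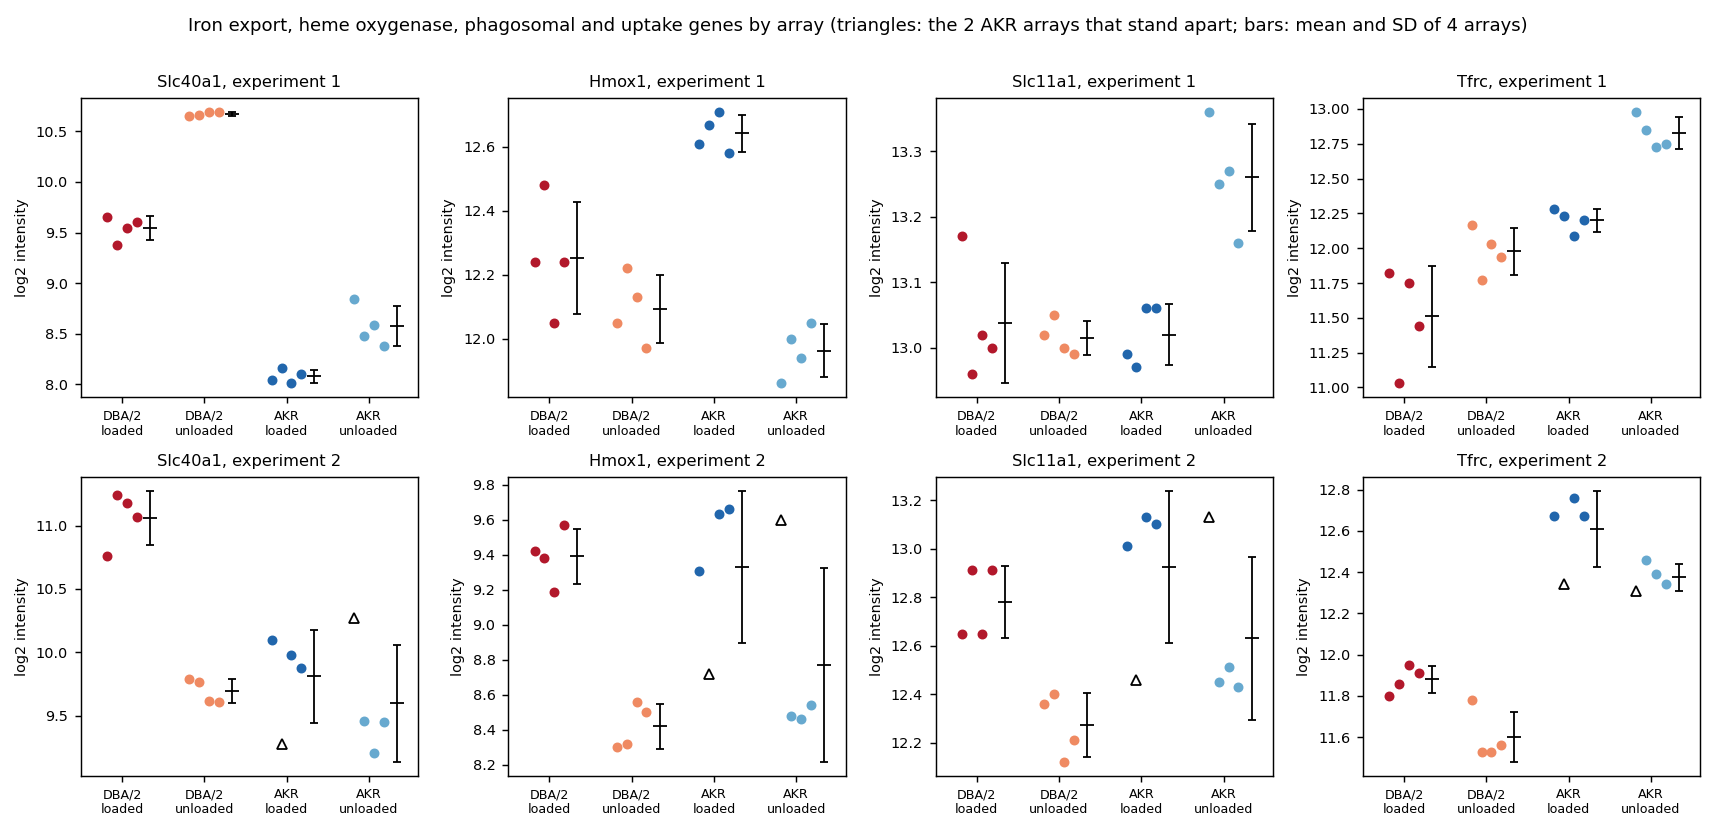
Log2 intensity (vertical axis) of Slc40a1, Hmox1, Slc11a1 and Tfrc on every array of experiment 1 (top) and experiment 2 (bottom), by group, with open triangles for the 2 AKR arrays that stand apart and bars for the mean and SD of 4 arrays. Loaded DBA/2 cells lie below unloaded DBA/2 cells for Slc40a1 in experiment 1 (9.38 to 9.65 against 10.65 to 10.69) and above them in experiment 2 (10.76 to 11.24 against 9.61 to 9.79).

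Slc11a1, known as NRAMP1, pumps iron and manganese out of the phagosome and is known for its part in resistance to intracellular bacteria. It was among the brightest probes of the arrays, within the top 107 of 24613 in experiment 1 and the top 88 of 25697 in experiment 2. In experiment 1 the brightest probe read 13.17, 12.96, 13.02 and 13.00 in loaded DBA/2 cells and 13.02, 13.05, 13.00 and 12.99 in unloaded DBA/2 cells. It read 12.99, 12.97, 13.06 and 13.06 in loaded AKR cells and 13.36, 13.25, 13.27 and 13.16 in unloaded AKR cells. Unloaded AKR arrays thus stood above loaded AKR and unloaded DBA/2 arrays, and the other 3 groups overlapped.

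Loading changed Slc11a1 in AKR cells by -0.24 ± 0.064 (adjusted p = 0.00386), a call that was lost without AKR loaded replicate 1 or 2 or AKR unloaded replicate 1 or 3, at differences of -0.24 to -0.21. DBA/2 and AKR cells differed by -0.24 ± 0.064 when unloaded (adjusted p = 0.00356), a call lost without AKR unloaded replicate 1 or DBA/2 unloaded replicate 4. The 2 dimmer probes gave larger AKR loading differences, -0.53 ± 0.072 (adjusted p = 1.72e-06) and -0.39 ± 0.083 (adjusted p = 0.000473), and larger strain differences in unloaded cells, -0.47 and -0.49 (adjusted p = 1.21e-05 and 4.57e-05). In loaded cells the strains overlapped on the brightest probe and on 1 of the dimmer ones. The other dimmer probe was called lower in loaded DBA/2 cells, without overlap (-0.29 ± 0.083, adjusted p = 0.00663). In DBA/2 cells none of the 3 probes was called for loading, with differences of 0.02, -0.16 and -0.20. The interaction of 0.26 ± 0.090 was not called on the brightest probe (adjusted p = 0.0352), and was called on 1 of the other probes at 0.37 ± 0.101 (adjusted p = 0.00955).

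In experiment 2 the brightest Slc11a1 probe was the same one and read 12.65, 12.91, 12.65 and 12.91 in loaded DBA/2 cells, against 12.36, 12.40, 12.12 and 12.21 in unloaded DBA/2 cells. The groups did not overlap, and the difference of 0.51 ± 0.165 was not called by the labels (adjusted p = 0.0432) and was called without the 2 arrays (0.51 ± 0.093, adjusted p = 0.000589). Loaded AKR cells read 13.01, 12.46, 13.13 and 13.10 and unloaded AKR cells 13.13, 12.45, 12.51 and 12.43, and again the 12.46 and the first 13.13 of the unloaded group came from the arrays that stand apart. The AKR difference was 0.30 ± 0.165 by the labels (adjusted p = 0.417) and 0.62 ± 0.107 without those arrays (adjusted p = 0.000359). Of the 3 dimmer probes, 1 was called without the 2 arrays in both strains (0.48 ± 0.082 in DBA/2 and 0.59 ± 0.095 in AKR cells, adjusted p = 0.000346 and 0.000198). The other 2 lay between 0.24 and 0.45 and were not called. Between the strains the brightest probe was not called in either setting. Unloaded DBA/2 arrays lay below unloaded AKR arrays without overlap on that probe and on 1 dimmer probe, in both settings. In loaded cells the strains overlapped on every probe by the labels. Without the 2 arrays loaded DBA/2 cells lay below loaded AKR cells on all but 1 probe. As for Slc40a1, loading moved Slc11a1 down in AKR cells of experiment 1 and up in those of experiment 2 without the 2 arrays.

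Uptake of transferrin-bound iron depends on Tfrc, the transferrin receptor. In experiment 1 its probe read 11.82, 11.03, 11.75 and 11.44 in loaded DBA/2 cells and 12.17, 11.77, 12.03 and 11.94 in unloaded DBA/2 cells. It read 12.28, 12.23, 12.09 and 12.20 in loaded AKR cells and 12.98, 12.85, 12.73 and 12.75 in unloaded AKR cells. All unloaded AKR arrays stood above every other array, and the groups of DBA/2 cells overlapped. Unloaded DBA/2 cells held less than unloaded AKR cells by a log2 difference of -0.85 ± 0.118 (0.555-fold, adjusted p = 3.09e-06), and loaded DBA/2 cells less than loaded AKR cells by -0.69 ± 0.118 (0.62-fold, adjusted p = 4.24e-05).

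Experiment 2 gave strain differences of the same sign and size for Tfrc. Its brightest probe read 11.80, 11.86, 11.95 and 11.91 in loaded DBA/2 cells, against 12.67, 12.34, 12.76 and 12.67 in loaded AKR cells. It read 11.78, 11.53, 11.53 and 11.56 in unloaded DBA/2 cells, against 12.31, 12.46, 12.39 and 12.34 in unloaded AKR cells. No DBA/2 array reached any AKR array. The differences were -0.73 ± 0.100 in loaded cells (0.603-fold, adjusted p = 4.78e-05) and -0.78 ± 0.100 in unloaded cells (0.584-fold, adjusted p = 2.68e-05), and without the 2 arrays -0.82 and -0.80 (adjusted p = 2.79e-06 and 4.87e-06). The probe shared with experiment 1 gave -0.73 and -0.79 in loaded and unloaded cells by the labels (adjusted p = 3.27e-05 and 1.48e-05).

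Loading lowered Tfrc in experiment 1, by -0.47 ± 0.118 in DBA/2 cells (adjusted p = 0.00588) and by -0.63 ± 0.118 in AKR cells (adjusted p = 0.000132), and the strains were not shown to differ in this (interaction 0.16 ± 0.168, adjusted p = 0.529). The DBA/2 call was lost without DBA/2 loaded replicate 2 or 4 or DBA/2 unloaded replicate 1, 3 or 4, and without the first of these, the array at 11.03, the difference was -0.31 (adjusted p = 0.0292). In experiment 2 the loading differences of the brightest probe were 0.28 ± 0.100 in DBA/2 cells and 0.23 ± 0.100 in AKR cells by the labels (adjusted p = 0.0646 and 0.36), and 0.28 and 0.30 without the 2 arrays (adjusted p = 0.0169 and 0.0234), none of them called.

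The annotated start of Tfrc lies beside a hypoxia response element core (ACGTG) and an ETS factor core (GGAAGT), and its site is shown because Tfrc differed between the strains in every comparison. The sequence of the genome build was not read from either strain, so it can show no difference between them. What part these sites have in the Tfrc difference was not tested. Of the 9 promoter windows of the members, ACGTG was in 3, of Tfrc and Blvrb, and GGAAGT in 2, both of Tfrc, whose windows overlap and hold the same sites. Of all 32817 windows, 19.6% held ACGTG and 23.8% held GGAAGT on either strand, so neither match is rare. The capitals mark the first motif and then the second in overlapping stretches of the plus strand.

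Tfrc, chr16:32608882-32608911, plus strand: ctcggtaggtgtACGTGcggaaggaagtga

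Tfrc, chr16:32608892-32608921, plus strand: gtacgtgcggaaGGAAGTgacgtagatcca

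Storage was read from Fth1 and Ftl1, the heavy and light chains of ferritin. Fth1 lay at the ceiling of the arrays, ranked from 1 to 6 among all probes on every array of experiment 1 and from 1 to 3 on every array of experiment 2. Since quantile normalization gives the probe of each rank the same value on every array, Fth1 took 6 distinct values in experiment 1, from 14.20 to 14.41, and 3 in experiment 2, from 14.15 to 14.27. Its differences were between -0.08 and 0.13 in the 5 comparisons of experiment 1 and within 0.02 of 0 by the labels in experiment 2, none called (lowest adjusted p = 0.279). A second Fth1 probe in experiment 2, ranked from 3 to 9, gave -0.12 ± 0.088 for loading in each strain (adjusted p = 0.387 in DBA/2 and 0.538 in AKR cells). A change of a message at the top of the intensity range could not be shown by these values, and absence of a call does not show that ferritin was unchanged.

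Ftl1 in experiment 1 was ranked from 10 to 30 and read 14.10, 14.05, 13.98 and 13.96 in loaded DBA/2 cells and 13.90, 13.93, 13.82 and 13.82 in unloaded DBA/2 cells. The groups did not overlap, and the difference of 0.15 ± 0.064 was not called (adjusted p = 0.0951). AKR cells ranged from 13.91 to 14.05 loaded and from 13.81 to 14.00 unloaded, with overlap (0.05 ± 0.064, adjusted p = 0.589). In experiment 2 Ftl1 was read by another probe that lay between 3.21 and 4.47, from percentile 2.74 to percentile 57 of its array, and passed the filter through the mean of loaded AKR cells alone. These values are near the background of the array and say little about the light chain. None of their differences was called, and no size is given at that level.

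**Figure D3:**
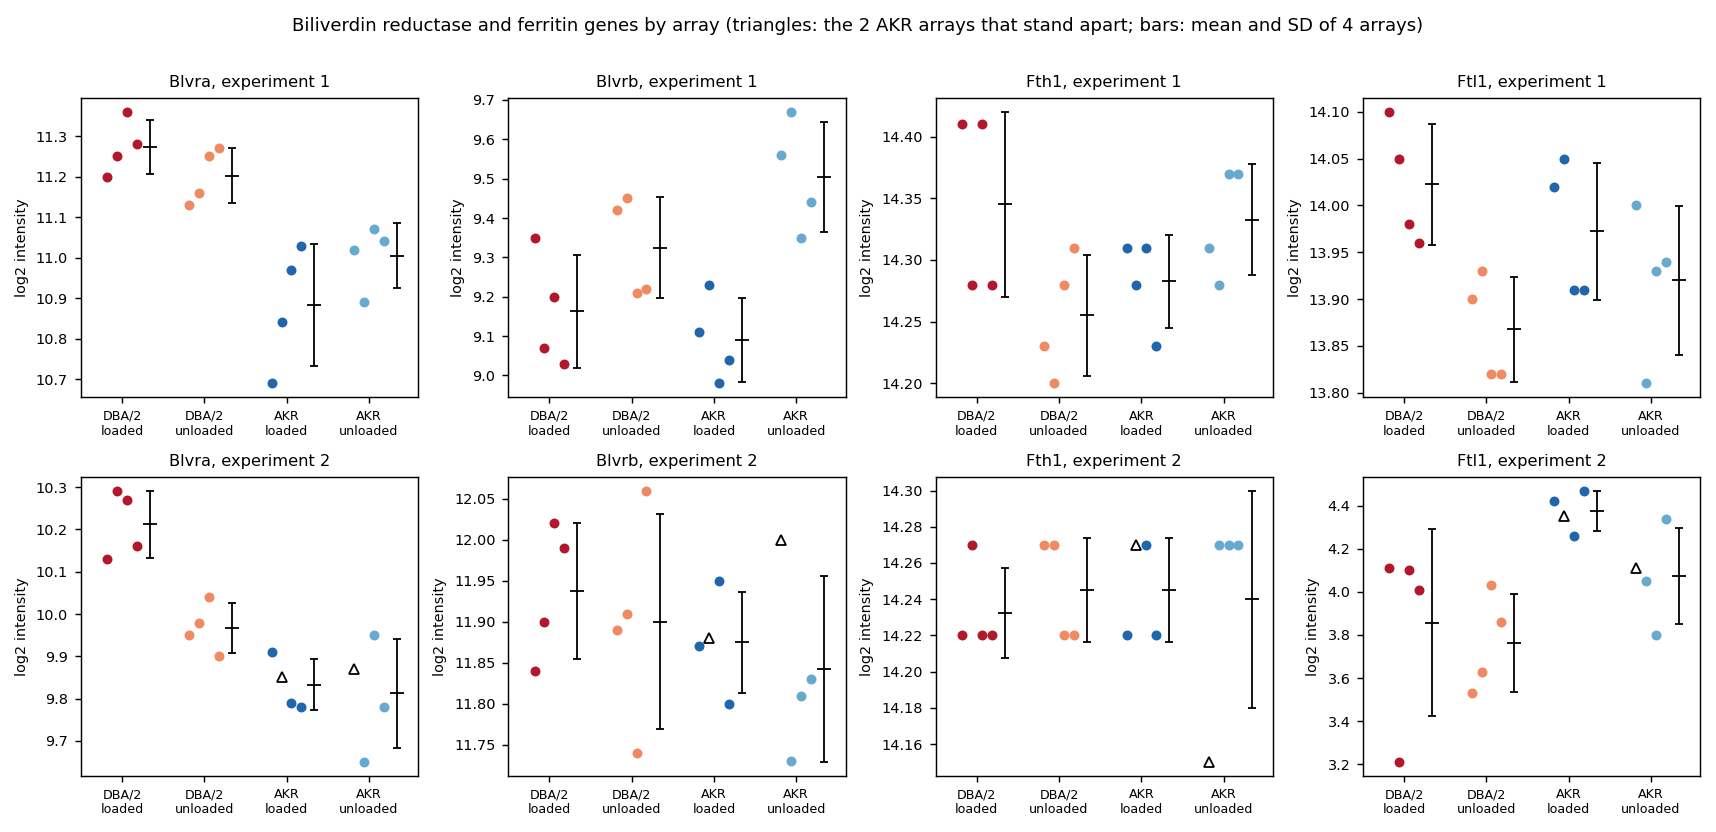
Log2 intensity (vertical axis) of Blvra, Blvrb, Fth1 and Ftl1 on every array of experiment 1 (top) and experiment 2 (bottom), by group, with open triangles for the 2 AKR arrays that stand apart and bars for the mean and SD of 4 arrays. Blvra is higher in loaded DBA/2 than in loaded AKR cells in both rows, Fth1 spans 14.20 to 14.41 and 14.15 to 14.27, and the Ftl1 probe of experiment 2 lies between 3.21 and 4.47.

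The members did not move as a unit. In experiment 1 the call for loading in AKR cells was upward for Hmox1 and downward for Slc40a1, Slc11a1, Tfrc and Blvrb, and their median difference was -0.18 beside 0.00 over all kept probes. In DBA/2 cells Slc40a1 and Tfrc fell and the median was 0.05 beside 0.01. Without the 2 arrays of experiment 2, Hmox1, Slc40a1 and Slc11a1 were called higher with loading in both strains. Among members Hmox1 and Slc11a1 ran together over the 16 arrays of experiment 2 (r = 0.90) and against each other over those of experiment 1 (r = -0.56), a description over arrays that share groups and normalization.

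Genes outside the members were ranked by how closely they followed each member, by the lower of the Pearson's r over the 16 arrays of each experiment among 7173 genes with a kept probe in both tables. Closest to Hmox1 were Eno2 (r = 0.961 in both experiments), Gnl3 (0.939 and 0.947 in experiments 1 and 2) and Hk3 (0.938 and 0.941). Slc40a1 was followed by Sorl1 (0.917 and 0.965), Per1 (0.856 and 0.867) and Acadvl (0.823 and 0.878). For Slc11a1 they were Ltc4s (0.798 and 0.860), Zcrb1 (0.782 and 0.810) and Rexo2 (0.842 and 0.744), and for Tfrc Prps1 (0.904 and 0.919), Rps3 (0.940 and 0.902) and Gstm5 (0.893 and 0.927). Arrays of the same group share their treatment, so these r values include the differences between groups and carry no p.

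Around the members, 79 further genes of iron and heme biology were described in 5 lists: iron entry and endosomal export, iron sensing and systemic control, heme synthesis, heme transport with its regulators, and mitochondrial iron with iron-sulfur clusters. Of these, 50 had a kept probe in experiment 1 and 57 in experiment 2. In experiment 1, 9 were called for loading in DBA/2 cells, with 5 higher and 4 lower, and 20 in AKR cells, with 10 in each direction, beside the 12.1% and 30.0% of all kept probes given above. These were 18% and 40% of the 50 genes. Strain was called for 28 genes in loaded cells (15 higher and 13 lower in DBA/2) and for 24 in unloaded cells (12 each way), 56% and 48% of the genes beside 28.8% and 28.2% of kept probes. The interaction was called for 18 genes, 11 positive and 7 negative, 36% beside 14.8%. In experiment 2 by the labels, 12 were called for loading in DBA/2 cells (6 each way), 21.1% beside 7.84%, and none in AKR cells, beside 0.00%. Strain was called there for 7 in loaded and 6 in unloaded cells, 12.3% and 10.5% beside 12.1% and 9.90%, and the interaction for 1, 1.75% beside 0.816%. Without the 2 arrays loading called 18 in DBA/2 and 13 in AKR cells, 31.6% and 22.8% beside 17.9% and 18.4%. Strain then called 11 and 9 in loaded and unloaded cells, 19.3% and 15.8% beside 19.2% and 14.0%, and the interaction 4, 7.02% beside 5.11%. The genes were each read from their brightest probe while the background counts every kept probe, and no test was made of these shares. The lists were also chosen with earlier results of these data known. List medians stayed between -0.23 and 0.19 for loading in every list, beside medians over all kept probes of 0.00 to 0.02.

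Of the iron entry genes, Trf, which encodes the transferrin that Tfrc binds, fell with loading in experiment 1 by -0.61 ± 0.081 in DBA/2 and -1.16 ± 0.081 in AKR cells (adjusted p = 5.41e-06 and 2.7e-11). It was higher in loaded DBA/2 than in loaded AKR cells in both experiments, by 1.38 ± 0.081 in experiment 1 and 0.67 ± 0.144 in experiment 2 by the labels (adjusted p = 5.66e-13 and 0.00303). Its levels in loaded cells were 10.33 to 10.66 in DBA/2 against 9.09 to 9.26 in AKR in experiment 1, and 10.56 to 11.14 against 9.99 to 10.40 in experiment 2, with no overlap. Snx3, a sorting nexin needed to recycle the transferrin receptor, rose with loading in DBA/2 (0.43 ± 0.102, adjusted p = 0.0031) and fell in AKR cells of experiment 1 (-0.54 ± 0.102, adjusted p = 0.000135), with an interaction of 0.97 ± 0.144 (adjusted p = 1.96e-05). In experiment 2 its interaction was 0.17 ± 0.296 by the labels (adjusted p = 0.857). Slc11a2, the endosomal iron transporter related to Slc11a1, fell with loading in DBA/2 cells of experiment 2 (-0.94 ± 0.132, adjusted p = 0.000156) and differed by -0.13 ± 0.067 in those of experiment 1 (adjusted p = 0.189). Mcoln1, a lysosomal cation channel that conducts iron, was higher in loaded AKR cells of experiment 1 (0.34 ± 0.073, adjusted p = 0.000532) and of experiment 2 without the 2 arrays (0.70 ± 0.122, adjusted p = 0.000415). In DBA/2 cells of experiment 2 it read 6.87 to 7.37 loaded against 6.47 to 6.79 unloaded, without overlap. The DBA/2 groups of experiment 1 overlapped.

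Lcn2, which encodes a protein that captures iron-carrying siderophores and is also a neutrophil granule protein, was the list gene with the largest loading difference in experiment 2. It read 5.86 to 6.30 in loaded DBA/2 cells, against 8.68 to 9.10 in unloaded DBA/2 cells, a difference of -2.94 ± 0.530 by the labels (adjusted p = 0.00125). By the labels its AKR groups overlapped. Without the 2 arrays it read 5.04, 5.18 and 4.85 in loaded AKR cells, against 7.35, 7.31 and 7.55 in unloaded AKR cells. In experiment 1 it changed the other way in DBA/2 cells, 10.05 to 10.32 loaded against 9.78 to 9.85 unloaded (0.34 ± 0.074, adjusted p = 0.00136), and fell in AKR cells (-0.62 ± 0.074, adjusted p = 2.39e-07). Haptoglobin, Hp, which binds free hemoglobin and is likewise stored in neutrophils, fell with loading in DBA/2 cells of experiment 2 by -1.98 ± 0.480 (adjusted p = 0.00961). Its AKR groups overlapped there by the labels. Without the 2 arrays Hp read 6.28, 6.35 and 6.11 in loaded AKR cells, against 7.87, 8.57 and 8.16 in unloaded AKR cells. The neutrophil marker S100a8 averaged 10.47 in loaded and 8.33 in unloaded DBA/2 cells in experiment 1 and 7.84 and 7.78 in experiment 2. The other neutrophil markers did not follow it, with averages in DBA/2 cells of 5.54 to 6.49 in experiment 1 and 3.65 to 4.47 in experiment 2. What part neutrophils have in the Lcn2 and Hp values was not tested.

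In the list of iron sensing and systemic control, Bdh2 rose with loading in DBA/2 cells of both experiments. It encodes a short-chain dehydrogenase that has been proposed to make a mammalian siderophore. The differences were 0.87 ± 0.086 in experiment 1 and 1.73 ± 0.130 in experiment 2 by the labels (adjusted p = 5.18e-08 and 4.77e-07). Its levels in AKR cells, 5.65 to 6.08 in experiment 1 and 3.57 to 4.29 in experiment 2, lay around the table medians of 5.98 and 4.29 that set the filter on low values, near the background of the arrays. A loading response in AKR cells could not be seen at that level, so no size is given for the interaction or for the strain differences, and every DBA/2 array stood above every AKR array of its experiment.

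Hfe, whose product binds the transferrin receptor and takes part in iron sensing, fell with loading in experiment 1 in DBA/2 (-0.66 ± 0.072, adjusted p = 2.61e-07) and AKR cells (-1.12 ± 0.072, adjusted p = 5.76e-12). It fell in both strains of experiment 2 without the 2 arrays as well, by -1.01 ± 0.117 and -1.61 ± 0.135 (adjusted p = 7.18e-06 and 2.55e-07), and was not called there by the labels. Cp, ceruloplasmin, the ferroxidase that works with ferroportin, was near background in experiment 1, where its group ranges lay between 5.72 and 6.29. In experiment 2 it was 6.33 to 6.74 in loaded DBA/2 cells, against 8.35 to 8.99 in unloaded DBA/2 cells (-2.19 ± 0.398 by the labels, adjusted p = 0.00131). Its AKR groups overlapped by the labels. Without the 2 arrays Cp read 5.30, 4.81 and 5.23 in loaded AKR cells, against 6.88, 6.86 and 7.11 in unloaded AKR cells.

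**Figure D4:**
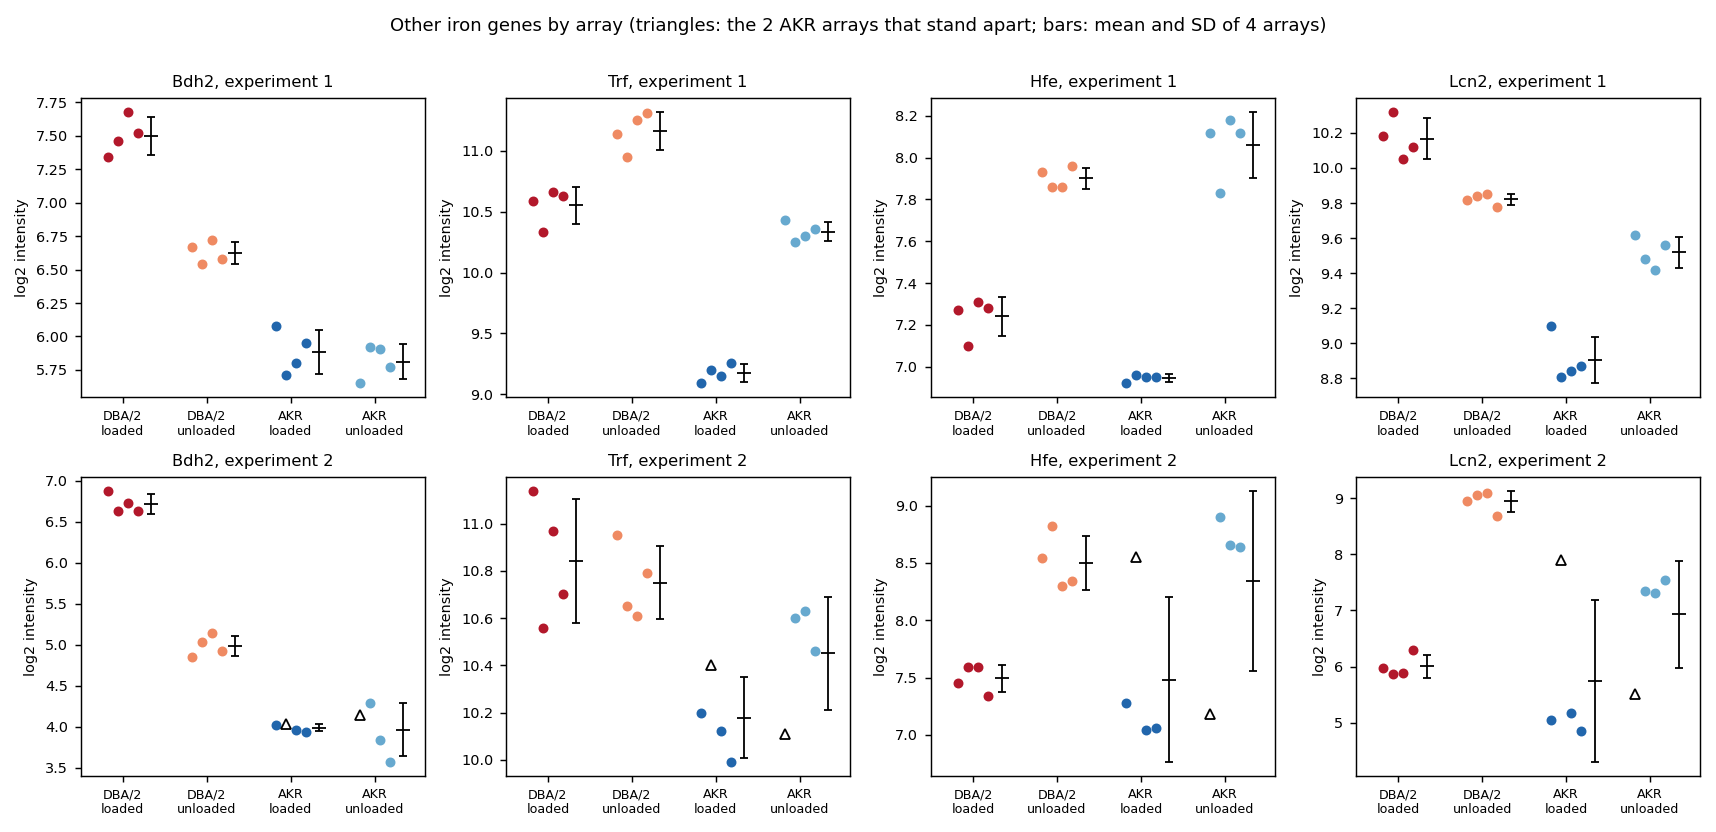
Log2 intensity (vertical axis) of Bdh2, Trf, Hfe and Lcn2 on every array of experiment 1 (top) and experiment 2 (bottom), by group, with open triangles for the 2 AKR arrays that stand apart and bars for the mean and SD of 4 arrays. Bdh2 is highest in loaded DBA/2 cells in both rows (7.34 to 7.68 and 6.63 to 6.88), while Lcn2 in loaded DBA/2 cells is above unloaded DBA/2 cells in experiment 1 and below them in experiment 2.

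Among the heme genes, Lrp1, a large endocytic receptor that also takes up the heme carrier hemopexin, rose with loading in DBA/2 cells of both experiments, by 0.74 ± 0.082 and 0.98 ± 0.131 (adjusted p = 3.91e-07 and 9.74e-05). In AKR cells it rose by 0.99 ± 0.082 in experiment 1 (adjusted p = 5.53e-10) and differed by 0.06 ± 0.131 in experiment 2 (adjusted p = 0.856), where all its values lay between 5.47 and 6.89. Slc48a1, which carries heme out of the phagolysosome, fell with loading in DBA/2 cells of experiment 1 (-0.31 ± 0.072, adjusted p = 0.0029) and rose in those of experiment 2 (0.62 ± 0.131, adjusted p = 0.00386). In AKR cells it read 10.40 to 10.53 loaded against 10.54 to 10.73 unloaded in experiment 1. Its AKR groups of experiment 2 overlapped by the labels, and without the 2 arrays read 10.32, 10.26 and 10.22 loaded against 9.72, 9.75 and 9.81 unloaded. Slc46a1, a heme and folate carrier, had an interaction of 0.69 ± 0.134 in experiment 1 (adjusted p = 0.000448) and of 0.10 ± 0.206 in experiment 2 (adjusted p = 0.872). Alad, of heme synthesis, was higher in loaded DBA/2 cells in both experiments (0.29 ± 0.059 and 0.68 ± 0.115, adjusted p = 0.000723 and 0.000827). In AKR cells it read 10.42 to 10.58 loaded against 10.29 to 10.37 unloaded in experiment 1. In experiment 2 by the labels the AKR groups overlapped, at 8.43 to 8.91 and 8.37 to 8.85, where the 8.43 and the 8.85 came from the 2 arrays. Without them Alad read 8.91, 8.79 and 8.82 in loaded AKR cells against 8.57, 8.46 and 8.37 in unloaded AKR cells. Abcb6, a transporter tied to porphyrin handling, and Mafg, a small MAF partner of NRF2 and BACH1, were higher in loaded AKR cells of experiment 1 (0.30 ± 0.090 and 0.60 ± 0.071) and of experiment 2 without the 2 arrays (0.90 ± 0.121 and 0.80 ± 0.106). Loaded DBA/2 arrays of experiment 2 also stood above unloaded ones. They read 6.58 to 6.81 against 5.48 to 5.90 for Abcb6, and 9.17 to 9.38 against 8.69 to 8.99 for Mafg. The DBA/2 groups of experiment 1 overlapped for both genes.

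In the mitochondrial list, Nubp2 and Ciao1, of the cytosolic iron-sulfur cluster machinery, were lower in DBA/2 than in AKR cells in unloaded cells of both experiments. Nubp2 differed by -0.35 ± 0.079 and -0.69 ± 0.082 (adjusted p = 0.00104 and 9.47e-06) and Ciao1 by -0.38 ± 0.076 and -0.50 ± 0.116 (adjusted p = 0.00031 and 0.0061), by the labels in experiment 2. Without the 2 arrays the Ciao1 call was lost (-0.47 ± 0.123, adjusted p = 0.0112). Nfu1, which carries clusters to mitochondrial enzymes, was called higher in unloaded DBA/2 than in unloaded AKR cells of experiment 2 (adjusted p = 0.0005), where the AKR arrays read 4.24 to 4.68, close to the table median of 4.29, so no size is given. In experiment 1 its difference in unloaded cells was 0.27 ± 0.083 (adjusted p = 0.0122). Hspa9, the mitochondrial chaperone of cluster transfer, rose with loading in AKR cells of experiment 1 (0.43 ± 0.063, adjusted p = 5.57e-06) and of experiment 2 without the 2 arrays (1.11 ± 0.110, adjusted p = 1.45e-06), and in both of these fits the rise was larger than in DBA/2 cells (interaction -0.40 ± 0.089 and -0.87 ± 0.146, adjusted p = 0.00173 and 0.00108).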

How the data were processed

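RNA of 32 dishes was hybridized to Illumina arrays, and the authors deposited log2 intensity tables that, per the labels and methods, lumi 2.6.0 had quantile-normalized and transformed within each experiment. The deposited log2 values were used as they stand. Of 24613 and 25697 probes in experiments 1 and 2, 20984 and 23978 were named for 1 gene, 1 and 0 for several and 3628 and 1719 for none. The authors' exclusion of probes over strain variants and of undetected probes was not repeated, and the labels do not name the chip of an array, although the methods put 2 arrays of each group on every chip. The number of arrays, 4 per group, limits the precision of every value.

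A model of strain, loading and strain by loading was fitted with limma 3.58.1 (R 4.3.3) over the 16 arrays of an experiment. It covered the 13339 and 13732 probes with at least 1 group mean above the overall median of the table (5.98 and 4.29). The call threshold was an adjusted p (Benjamini-Hochberg) of 0.01. The fit was tested on simulated data. Alternatives were no filter and a stricter one, eBayes with trend and robust options, fits of the compared groups only, a shift to a common 75th percentile, an offset of 50 on the linear scale, other probes of a gene, a threshold of 0.05, a replicate block, a block of replicates 1 and 2 against 3 and 4 added after the values were seen, each array left out in turn, and experiment 2 without the 2 arrays that stand apart.

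The members and gene lists were chosen with earlier results of these data known. Genes named from the lists were, in each comparison and experiment, up to 4 called genes with the largest absolute difference, and those called in the same direction in both experiments. The most similar genes were the 3 per member with the highest lower r of the experiments. Marker lists were macrophage, erythroid, neutrophil, stromal, mast, T and B cell, of which the last 3 had summed levels of 7.82 to 8.36 in experiment 1 and 5.80 to 6.84 in experiment 2 in all groups. Figures were drawn with matplotlib 3.10.9 in Python 3.11.15.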

Additional observations from a re-analysis of the deposited data

Results flagged for a closer look

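Single arrays stood far from the rest of their group for 6 of the 64 sets of 4 arrays checked, where chance gives about 1 in 20, and all 6 were in experiment 2. AKR unloaded replicate 1, which correlated best with loaded AKR cells, read 9.60 for Hmox1 where the others read 8.46 to 8.54, 13.13 for Slc11a1 where they read 12.43 to 12.51, and 14.15 for Fth1 where they read 14.27. DBA/2 loaded replicate 2 read 14.27 for Fth1 where the others read 14.22, and 3.21 for the dim Ftl1 probe where they read 4.01 to 4.11. DBA/2 unloaded replicate 1 read 11.78 for Tfrc where the others read 11.53 to 11.56. The Fth1 values take only the steps that the highest ranks of the normalized table allow.

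The strains differed in their loading response by the interaction test of limma for Hmox1 (-0.52 ± 0.112, adjusted p = 0.00124), Slc40a1 (-0.63 ± 0.115, adjusted p = 0.000213) and 1 Slc11a1 probe that is not the brightest (0.37 ± 0.101, adjusted p = 0.00955) in experiment 1. Slc40a1 had the opposite sign in experiment 2 without the 2 arrays that stand apart (0.75 ± 0.166, adjusted p = 0.00808).

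Loading moved Slc40a1 in DBA/2 cells by 1.36 in experiment 2 and by -1.13 in experiment 1, with every loaded array on the far side of every unloaded one each time. Without the 2 arrays the loading differences in AKR cells were likewise opposite, at 0.61 in experiment 2 and -0.50 in experiment 1 for Slc40a1, 0.62 and -0.24 for Slc11a1, and 0.30 and -0.63 for Tfrc. These differences between the experiments were not tested.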

How the results depend on the processing

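None of the 27 member differences called by the labels or without the 2 arrays changed sign under any alternative. Of the others, never called in either, 2 of 24 in experiment 1 and 14 of 29 in experiment 2 did. The largest was the Hmox1 interaction of experiment 2 (0.41 by the labels, -0.07 without the 2 arrays). On the same probe, many alternatives cannot move a difference: the filters, the eBayes options, fits of the compared groups only and the replicate blocks. Nor can leaving out an array of a group not compared. A sign could change only with the percentile shift, the offset, another probe, or a left-out array of a compared group. For the 16 differences called in experiment 1, leaving out 1 array kept the call in 245 of 256 fits and the other alternatives in 141 of 144. For the 6 called by the labels in experiment 2 these were 82 of 96 and 57 of 62, and the 5 called only without the 2 arrays gained a call in 8 of 51 fits of the other alternatives, the fit without those arrays among them, and in 0 of 80 with 1 array left out. For loading in DBA/2 cells, members called were 1 with only the compared groups fitted in experiment 1 (2 in the main fit, Tfrc lost at adjusted p = 0.02), and 1 without a filter, with trend and robust options or with replicates 1 and 2 set against 3 and 4 as a block in experiment 2 (2 by the labels, Hmox1 lost at 0.017, 0.0123 and 0.0113). Without the 2 arrays that stand apart, loading in AKR cells of experiment 2 called 3 members in place of 0, and the interaction called 1 in place of 0, as did a threshold of 0.05. Without a filter Slc11a1 lost both of its experiment 1 calls (adjusted p = 0.0114 for loading in AKR and 0.0105 for strain in unloaded cells) and Blvra its experiment 2 call (0.0214, and 0.013 with only the compared groups). The cause of these changes was not tested.

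With 1 array left out, members called ranged over 1 to 2 for loading in DBA/2, 4 to 5 for loading in AKR, 4 to 4 and 2 to 3 for strain in loaded and unloaded cells and 2 to 2 for the interaction in experiment 1. In experiment 2 they ranged over 1 to 2, 0 to 0, 2 to 3, 1 to 1 and 0 to 0 in the same order. Probes called at 0.05 in place of 0.01 were 2699 in place of 1608 for loading in DBA/2 and 3298 in place of 1980 for the interaction in experiment 1. In experiment 2, loading in DBA/2 called 1077 probes by the labels, 694 without a filter, 2177 with only the compared groups, 2361 at 0.05 and 2494 without the 2 arrays. The interaction called 112, 64 without a filter, 191 with the offset, 349 at 0.05 and 711 without the 2 arrays. Strain in loaded cells called 1659, 2789 at 0.05 and 2669 without the 2 arrays, strain in unloaded cells 1359 and 2254 at 0.05, and loading in AKR 0 and 2557 without the 2 arrays.

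Replicate numbers were not used as pairs in the main fit, and whether they pair the samples was not tested. Same-numbered arrays of different groups deviated together with r between 0.0109 and 0.157 in experiment 1. In experiment 2 r lay between -0.296 and 0.521, with the 2 arrays that stand apart included. The replicate block left every count of members called as it was, with 1785 in place of 1608 probes for loading in DBA/2 cells of experiment 1. The methods put 2 arrays of each group on a chip, but the chip of each array was not stated, so replicates 1 and 2 against 3 and 4 were used as a stand-in chosen after the values were seen. Deviations from the group means correlated at a mean r of 0.069 between arrays of different groups on the same side of that split and -0.0687 across it in experiment 1, and at 0.0623 and -0.064 in experiment 2 without the 2 arrays. Such deviations cancel within a group, so the value across the split nearly mirrors the other and is no separate observation. The block of replicates 1 and 2 against 3 and 4 changed no other count of members called. Probes at the top of the range (Fth1) and near background (the Ftl1 probe of experiment 2) limit what can be seen of ferritin.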
